A study of Chlorocebus sabaeus with 45 samples.

Results

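The genes that license origins of DNA replication were followed in whole blood of vervet monkeys (Chlorocebus sabaeus) taken from the wild into quarantine. The group held 10 genes, ORC1, CDC6, CDT1, MCM2 to MCM7 and MCM10, picked by symbol from 33994 genes listed for each library, and all 10 were among the 18753 genes that passed a filter on low values. Each of 15 juvenile males gave a blood sample at day 0 (Tp1), day 3 (Tp2) and day 14 (Tp4), which made 45 libraries. On day 0 the animals were sampled in the field at capture under ketamine and xylazine. On days 3 and 14 they were sampled in individual housing at the primate facility under dexmedetomidine and midazolam, after earlier blood draws. Place, housing, sedative and earlier draws thus cannot be told apart from the difference between day 0 and the later days. All animals were wild-born, no library came from an animal left in the wild, and all samples were stabilized whole blood with ribosomal and globin RNA removed.

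Licensing is the step that permits each stretch of the genome to be copied a single time per cell cycle. In G1 phase the origin recognition complex, whose largest subunit is ORC1, binds DNA and recruits the ATPase CDC6, and CDT1 then brings in the ring of MCM2 to MCM7, the core of the replicative helicase. The loaded ring stays idle until kinases and firing factors switch it on at the start of S phase, with MCM10 among the proteins needed for its activation. Most circulating white cells are out of the cell cycle, and the blood cells that divide, such as activated lymphocytes, plasmablasts and dividing red cell precursors, are known to carry these transcripts at higher levels. In whole blood, fewer cells of a type and less RNA per cell cannot be told apart.

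Levels are given in FPKM, fragments scaled to gene length and to the library total, so that genes can be compared per length. Recovered totals ran from 13216275 to 31469332 fragments per library and did not differ from day 0 beyond the spread between animals (two-sided exact sign-flip permutation test over 15 animals, p = 0.499 on day 3 and 0.444 on day 14). The lowest count of any member in any library was 15 fragments, for CDT1 on day 3. For the tests FPKM were divided by a library factor from TMM, a trimmed mean of ratios to a reference library. The median factor was 1.14 on day 0, 1.13 on day 3 and 0.789 on day 14, so that values of day 14 were moved up. With it the typical gene did not shift between day 14 and day 0 (median log2 fold change −0.02 over the 18753 genes), and without it that median was −0.36. Libraries of day 0 animal 9 and day 14 animal 4 stood apart, with 30752 and 31402 genes above 0 against 20008 to 26792 in the 43 others. Defining markers of every blood cell type searched were present, and no marker was at 0 in all libraries of a day.

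All 10 genes were higher on day 14 than on day 0, and 7 of 10 were already higher on day 3 (limma, Benjamini-Hochberg adjusted p under 0.05 over all tested genes). Across the whole table, 18.8% of tested genes were called higher and 17.3% lower on day 14 vs. day 0, and 6.02% were called higher and 6.19% lower on day 3. The median log2 fold change of the 10 genes was 0.65 on day 3 and 1.02 on day 14, beside medians of 0.01 and −0.02 over the table. Between day 3 and day 14 only MCM6 and MCM10 were called higher, 2 of 10 genes, where 8.38% of tested genes were called higher and 5.01% lower. With the animal as a replicate block, 9 of 10 genes were called higher on day 3 vs. day 0 (10.1% of tested genes) and 5 of 10 on day 14 vs. day 3 (13.9%). Without TMM scaling the day 14 vs. day 0 call was kept by 6 of 10 genes (7.79% of tested genes were then higher and 41.8% lower) and lost by CDT1, MCM3, MCM5 and MCM7. Without that scaling 5 of 10 genes were called higher on day 3 vs. day 0 (3.79% of tested genes) and none on day 14 vs. day 3 (3.23%), where 3 of 10 had an unadjusted p under 0.05 by limma (MCM6 higher, MCM3 and MCM5 lower) and voom on recovered fragments, which does use TMM, called 3. Over all tested genes the median log2 fold change between days 3 and 14 was −0.35 without the scaling. ORC1, MCM2 and MCM6 had the largest differences of the group on day 14 vs. day 0 and MCM3, MCM5 and MCM7 the smallest, with and without the scaling.

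**Figure D1:**
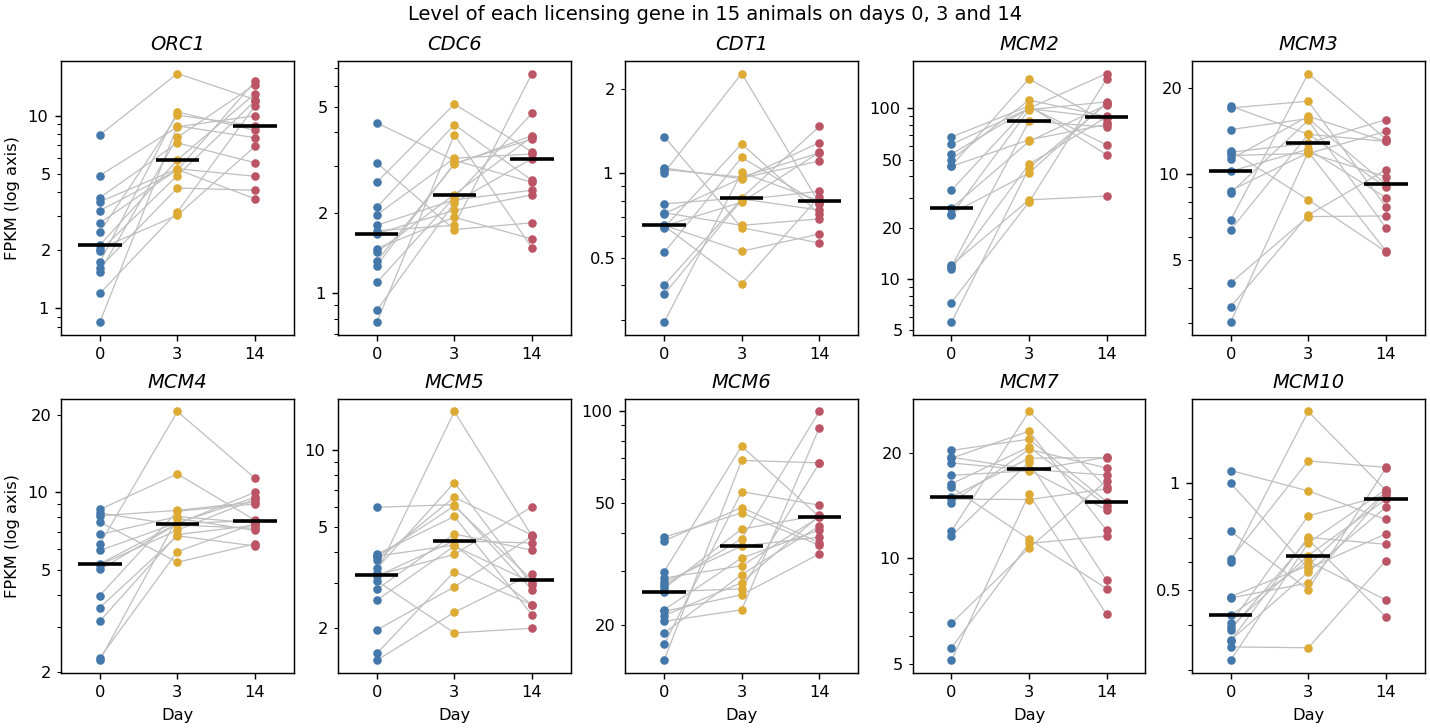
Level of each of the 10 genes in FPKM (vertical log axis, a different range in each panel) on days 0, 3 and 14, with 1 point per animal (n = 15), grey lines joining the samples of an animal and black bars at the medians. ORC1 and MCM2 lie higher on both later days in nearly every animal, while MCM3, MCM5 and MCM7 return on day 14 to medians of 9.21, 3.10 and 14.5 FPKM, close to those of day 0.

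ORC1, the ATPase subunit that marks the origin in G1, was low before quarantine. On day 0 its lowest, median and highest levels were 0.846, 2.13 and 7.93 FPKM. They were 3.04, 5.88 and 16.5 FPKM on day 3 and 3.70, 8.85 and 15.1 FPKM on day 14. Every one of the 15 animals was higher on both later days than on day 0, although the ranges overlapped, and 9 of 15 day 14 samples lay above the highest day 0 sample. The log2 fold change was 1.42 on day 3 (SE 0.33, adjusted p = 0.00382 by limma) and 2.19 on day 14 (SE 0.33, adjusted p = 3.19e-06). From day 3 to day 14 it was 0.77 (adjusted p = 0.102), with 7 animals higher and 8 lower. With the animal as a replicate block, and also without the 2 libraries that stood apart, this last difference was called (adjusted p = 0.0429 and 0.0469). Without those libraries 5 of 10 members were called higher on day 14 vs. day 3, where 11% of tested genes were.

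CDC6, which joins the origin recognition complex to load the helicase and is destroyed outside the licensing window, had a day 0 median of 1.67 FPKM between 0.775 and 4.35. Its median was 2.34 FPKM on day 3 (1.73 to 5.11) and 3.19 FPKM on day 14 (1.48 to 6.66). CDC6 rose by a log2 fold change of 0.70 on day 3 (SE 0.18, adjusted p = 0.00923) and 1.2 on day 14 (SE 0.18, adjusted p = 3.19e-06). It was higher in 12 and 13 of 15 animals, and animals 5 and 10 were lower on both later days. CDT1, the carrier of the helicase ring and the main target of the controls that prevent a repeat round of licensing, was scarce throughout. Its medians were 0.653 (day 0), 0.818 (day 3) and 0.799 FPKM (day 14), within a span of 0.294 to 2.27 FPKM over all 45 libraries. CDT1 did not pass the test on day 3 (log2 fold change 0.35, 95% interval −0.02 to 0.72, adjusted p = 0.217) and did on day 14 (0.71, SE 0.18, adjusted p = 0.00210). Without TMM scaling the day 14 difference of CDT1 was 0.33 and was not called (adjusted p = 0.108).

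MCM2, the subunit whose tail binds histones and which forms the entry gate of the ring together with MCM5, was the most abundant member by median on each day. Its lowest, median and highest levels were 5.57, 26.0 and 68.0 FPKM on day 0, then 28.3, 84.0 and 149 FPKM on day 3 and 30.6, 89.1 and 160 FPKM on day 14. Day 14 overlapped little with day 0, as 12 of 15 day 14 samples lay above the highest day 0 sample. Of the day 3 samples 8 of 15 did, and days 3 and 14 overlapped almost wholly. The log2 fold change was 1.53 on day 3 (SE 0.39, adjusted p = 0.00853), with all 15 animals higher. On day 14 it was 2.23 (SE 0.39, adjusted p = 2.4e-05), with 14 animals higher and animal 13 lower. Between days 3 and 14 the difference of 0.70 was not called (adjusted p = 0.219), and 6 animals were lower. The lowest day 0 and the lowest day 14 sample were the 2 libraries that stood apart, and without them the log2 fold changes were 1.35 on day 3 and 2.20 on day 14, both called. In the annotated genome assembly mChlSab1.0.hap1, MCM2 overlaps TPRA1, a protein-coding gene, and a long noncoding RNA. TPRA1, named here for its position after values were seen, had means of 17.8 ± 3.19, 20.6 ± 4.24 and 21.1 ± 4.79 FPKM (SD, n = 15) on days 0, 3 and 14, a much smaller difference in unscaled FPKM than that of MCM2. The log2 levels of the 2 genes had a Pearson r of 0.76 over the 45 libraries on the TMM scale and 0.29 without scaling. Whether reads of one gene were counted for the other was not tested. The libraries were stranded, but the strand setting of the counting was not given in the sources used here.

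MCM6, which with MCM4 and MCM7 can unwind DNA without the other subunits, ranged on day 0 from 15.4 to 38.8 FPKM around a median of 25.7. On day 3 its median was 36.3 FPKM (22.5 to 76.7) and on day 14 it was 45.2 FPKM (34.2 to 99.5). On day 14, 12 of 15 samples lay above the highest day 0 sample, and every animal was higher than on day 0 after scaling. MCM6 rose by 1.43 on the log2 scale on day 14 (SE 0.23, adjusted p = 9.85e-06). On day 3 the difference of 0.66 just missed the threshold (adjusted p = 0.0517), although 14 of 15 animals were higher, and it was called with the replicate block (adjusted p = 0.0347) and without TMM scaling (adjusted p = 0.0136). Between days 3 and 14 MCM6 rose by a further 0.77 (SE 0.23, adjusted p = 0.0258), with 10 animals higher and 5 lower. That call was lost when animal 3, 8, 9, 12 or 14 was left out, with the replicate block and the RNA integrity number together (adjusted p = 0.0658), and without TMM scaling, where the difference was 0.39 (adjusted p = 0.0658). A pseudogene overlaps MCM6 in mChlSab1.0.hap1.

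MCM4, a subunit that the kinase CDC7 phosphorylates when origins fire, moved between these patterns. Its median was 5.27 FPKM before quarantine (2.22 to 8.58), 7.55 by day 3 (5.34 to 20.6) and 7.77 by day 14 (6.18 to 11.3). It rose by log2 fold changes of 0.70 on day 3 (adjusted p = 0.00323) and 1.09 on day 14 (adjusted p = 2e-06, SE 0.16 in both). MCM10, which acts after loading, was the least abundant member on days 0 and 3, with medians of 0.425 FPKM on day 0, 0.625 on day 3 and 0.898 on day 14. MCM10 did not pass the test on day 3 (log2 fold change 0.42, adjusted p = 0.0889, and 0.0268 with the replicate block). It rose by 0.95 on day 14 vs. day 0 (SE 0.16, adjusted p = 2.1e-05) and by 0.53 on day 14 vs. day 3 (adjusted p = 0.0282), with 14 and 13 of 15 animals higher. The second of these calls was lost when animal 8, 12 or 14 was left out, with RNA integrity number as covariate (adjusted p = 0.0827), and without TMM scaling (log2 fold change 0.20, adjusted p = 0.326).

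MCM3, MCM5 and MCM7 took another course, with their highest medians on day 3 and FPKM on day 14 close to those of day 0. MCM3, which contacts the complex of ORC and CDC6 during loading, had medians of 10.2 FPKM at day 0 (range 3.02 to 17.3), 12.8 at day 3 (7.09 to 22.5) and 9.21 at day 14 (5.35 to 15.5). MCM5, the partner of MCM2 at the gate, had medians of 3.24 FPKM (1.5 to 5.98), 4.41 (1.92 to 14.2) and 3.10 (2.0 to 6.01). MCM7, a member of the unwinding core, had medians of 14.95 FPKM (5.11 to 20.3), 17.9 (10.7 to 26.2) and 14.5 (6.91 to 19.4). The ratio of the day 14 to the day 0 mean was 1.0 for MCM3, 1.1 for MCM5 and 1.0 for MCM7, against 2.89 for MCM2 and 3.31 for ORC1. On the TMM scale all 3 were called higher on day 3, by 0.58 for MCM3 (adjusted p = 0.00559), 0.63 for MCM5 (adjusted p = 0.00382) and 0.44 for MCM7 (adjusted p = 0.00775). They were also called higher on day 14 vs. day 0, by 0.53 for MCM3 (adjusted p = 0.00262), 0.56 for MCM5 (adjusted p = 0.00232) and 0.48 for MCM7 (adjusted p = 7.50e-04). These day 14 calls rest on the scaling, since without TMM the differences were 0.10, 0.14 and 0.06 (adjusted p = 0.695, 0.561 and 0.812). The median over all tested genes was −0.36 in that setting. The day 3 differences kept most of their size without TMM, at 0.53, 0.59 and 0.40, but were not called (adjusted p = 0.126, 0.0562 and 0.223). With the RNA integrity number of each sample as a covariate, 7 of 10 members were called higher on day 14 vs. day 0 (11.8% of tested genes), and MCM3, MCM7 and CDT1 were not, at log2 fold changes of 0.36, 0.29 and 0.52 (adjusted p = 0.10, 0.0868 and 0.0756). By the values in the paper, that number was higher on day 14 than on day 0 in most animals. RNA quality and day therefore cannot be fully told apart, and the covariate may take up part of a day difference. Between days 3 and 14 none of the 3 was called, with log2 fold changes of −0.05 for MCM3, −0.08 for MCM5 and 0.04 for MCM7. Without TMM they were −0.43, −0.45 and −0.34, none called, where the median over all tested genes was −0.35.

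**Figure D2:**
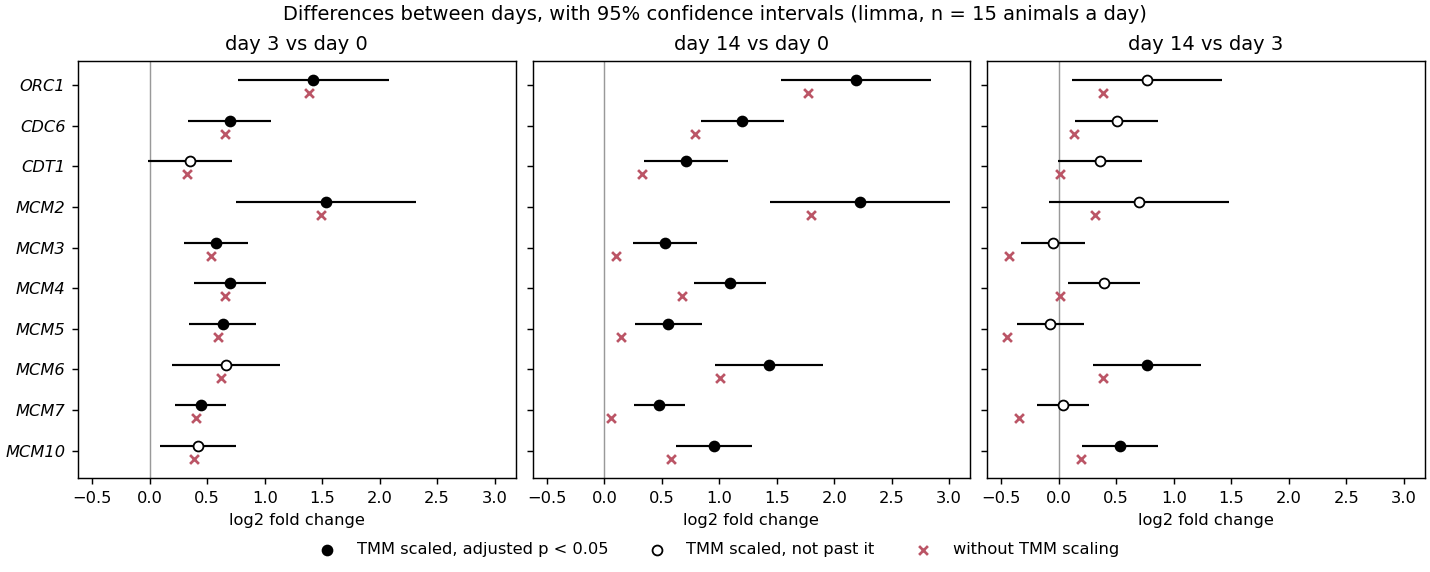
Log2 fold changes (horizontal axis) of the 10 genes in the 3 comparisons between days (limma, n = 15 animals a day), with 95% confidence intervals, filled points at an adjusted p under 0.05, open points otherwise, and red crosses for the value without TMM scaling. On day 14 vs. day 0 all 10 TMM-scaled values are called, from 0.48 for MCM7 to 2.23 for MCM2, and the crosses of MCM3, MCM5 and MCM7 lie near 0; on day 14 vs. day 3 only MCM6 and MCM10 are called, and neither is without TMM scaling.

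The order of the genes by median level also shifted. On day 0 it ran MCM2, MCM6, MCM7, MCM3, MCM4, MCM5, ORC1, CDC6, CDT1 and MCM10. MCM2 and MCM6 were then close, with medians of 26.0 and 25.7 FPKM and MCM2 the higher in 9 of 15 animals. MCM2 exceeded MCM6 in 14 of 15 animals on day 3 and again on day 14. Neighbours further down were close on day 0 as well, since MCM5 exceeded ORC1 in 9 animals, ORC1 exceeded CDC6 in 9 and CDT1 exceeded MCM10 in 11. By contrast, MCM7 over MCM3, MCM3 over MCM4, MCM4 over MCM5 and CDC6 over CDT1 held in all 15 animals, though their ranges overlapped. By day 14 ORC1 had moved up to lie between MCM3 and MCM4, exceeded by MCM3 in 8 animals and exceeding MCM4 in 8, so that these 3 did not differ beyond their spread. CDC6 and MCM5 were likewise close on day 14, with medians of 3.19 and 3.10 FPKM.

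Because the 6 ring subunits are used in equal number, their transcripts can be expressed as shares of the summed MCM2 to MCM7 level, a measure that no scaling between libraries affects. The sum rose from 90.0 ± 25.2 FPKM (SD, n = 15) on day 0 to 163 ± 42.4 on day 3 and 181 ± 43.9 on day 14. MCM2 took 33.3% ± 17.1 of it at capture, then 45.6% ± 11.5 (day 3) and 50.2% ± 9.54 (day 14), and its share was above that of day 0 in 13 and 11 of 15 animals. The day 0 spread was wide, from 7.55% to 59.3%. The share of MCM7 went from 16.3% ± 5.99 to 11.9% ± 4.95 and 8.45% ± 3.48, and was above that of day 0 in 1 and 2 animals only. MCM3 went from 11.3% ± 5.47 to 8.88% ± 3.95 and 5.89% ± 2.71, above day 0 in 3 animals on each later day. MCM6 held 29.0% ± 6.24, 24.6% ± 6.19 and 28.6% ± 5.57 of the sum, and MCM4 and MCM5 together made up a small remainder on every day. These shares are given as descriptions, with no test.

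**Figure D3:**
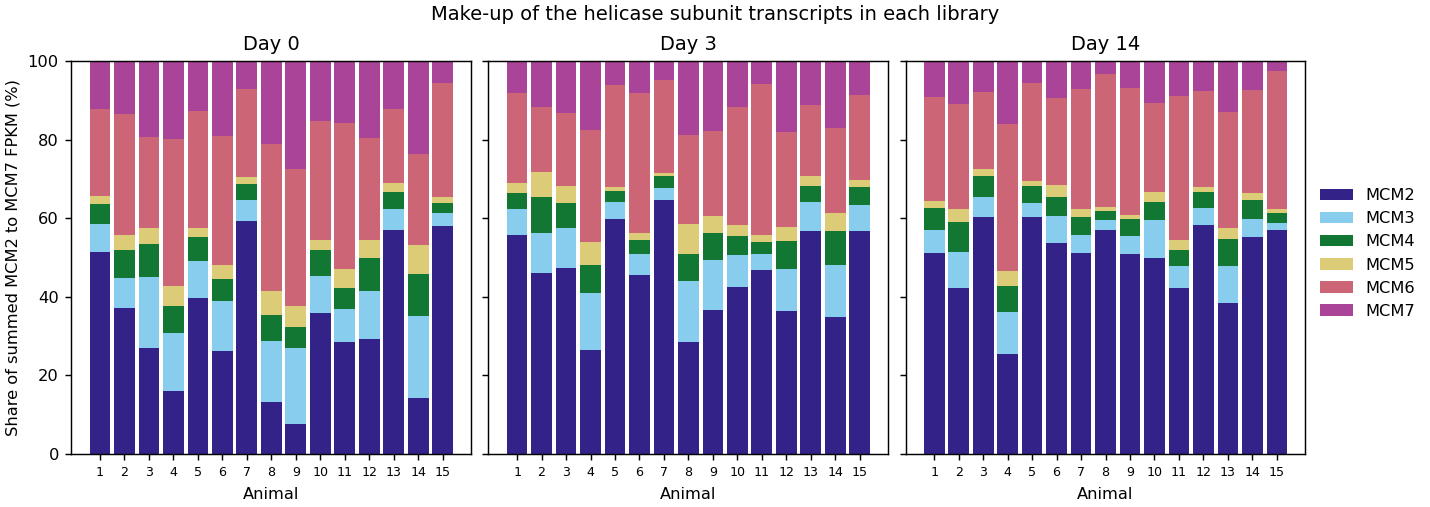
Share of each subunit in the summed MCM2 to MCM7 FPKM (vertical axis, percent), with 1 stacked bar per animal on each day (n = 15). The MCM2 part ranges from 7.55% to 59.3% on day 0 and from 25.4% to 60.3% on day 14, and the MCM7 part at the top of each bar is smaller on day 14 in 13 of 15 animals.

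Ratios within a library do not depend on scaling between libraries. The median ratio of MCM2 to its gate partner MCM5 was 7.35 at capture, 14.8 by day 3 and 29.1 by day 14. The change from day 0 to day 14 was 1.66 ± 1.77 on the log2 scale (mean ± SD, n = 15), upward in 13 animals, so that the spread between animals was as wide as the mean. The ratio of MCM6 to MCM7 changed by 0.95 ± 0.72 and went up in all 15 animals. MCM3 and MCM7 kept pace, with median ratios of 0.674, 0.717 and 0.656 and a change of 0.05 ± 0.37, upward in 8 animals. Among the loading factors, the median ratio of ORC1 to CDC6 was 1.22, 2.33 and 3.11, with a change to day 14 of 0.99 ± 1.34, upward in 12 animals.

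Animals differed in how many genes moved. On day 3 all 10 genes were higher than on day 0 in 8 animals and at least 8 of them in 12 animals, on the TMM scale. The corresponding numbers on day 14 were 8 and 13 animals. Animal 5 had only 4 genes higher on day 3 and animal 10 had 5, and animal 10 again had 5 on day 14. Animal 10 had the highest day 0 level of CDC6, CDT1, MCM6 and MCM10, whereas animal 15 had the lowest day 0 level of CDC6, CDT1, MCM3, MCM4 and MCM7 and animal 11 that of ORC1, MCM6 and MCM10. On day 3 the library of animal 2 was the highest for 7 genes, CDC6, CDT1, MCM3, MCM4, MCM5, MCM7 and MCM10. It reached 14.2 FPKM for MCM5 and 20.6 FPKM for MCM4, where the next animals had 7.47 and 11.8. Of those 7 genes CDT1 and MCM10 were not called on day 3 vs. day 0, with or without animal 2. The genes called there with all animals, ORC1, CDC6, MCM2, MCM3, MCM4, MCM5 and MCM7, were still called without it.

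Across the 45 libraries some of the genes varied together. The sets below were drawn from these same values, so a high r within a set is no separate result. Correlations between members were not computed without TMM scaling. Correlations are Pearson r of TMM-scaled log2 levels and are given as descriptions, since libraries of an animal are not independent and share scaling and day. The pairs among ORC1, MCM2 and MCM6 had r from 0.84 to 0.90, and from 0.71 to 0.81 after the mean of each day was removed. Among MCM3, MCM5 and MCM7 r ran from 0.67 to 0.89, with MCM3 and MCM7 the closest. Between these sets r was only 0.18 to 0.45, and −0.23 to 0.07 within days. CDC6, CDT1, MCM4 and MCM10 lay between them, with r from 0.56 to 0.83 among themselves.

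Levels of cell type markers moved alongside. The summed level of 18 reticulocyte and red cell precursor markers had a median of 6478 FPKM on day 0 (824 to 22970), 16748 on day 3 (5668 to 32296) and 30917 on day 14 (11438 to 40675), and all 18 were called higher on day 14 vs. day 0. MCM2 followed the mean log2 level of these markers with r = 0.96, ORC1 with 0.94 and MCM6 with 0.88 over the 45 libraries. Within days the values were 0.94, 0.87 and 0.77, and without TMM scaling they were 0.94, 0.90 and 0.75 over all libraries and 0.90, 0.78 and 0.50 within days. MCM3, MCM5 and MCM7 followed the same markers weakly (r = 0.19, 0.22 and 0.32), and the sign turned within days (−0.29, −0.23 and −0.14) and without TMM scaling (−0.22, −0.21 and −0.22). With the 9 T cell markers r was 0.55 for MCM3, 0.20 for MCM5 and 0.50 for MCM7, and 0.80, 0.60 and 0.80 without TMM scaling. With the 8 plasma cell markers it was 0.49, 0.46 and 0.61, and 0.72, 0.65 and 0.78 without TMM scaling, and with the 8 B cell markers 0.40, 0.24 and 0.23, and 0.76, 0.67 and 0.74 without it. CDC6 and MCM4 had r of 0.72 and 0.66 with the plasma cell markers, and 0.63 and 0.60 without TMM scaling. ORC1, CDT1, MCM10, MCM6 and MCM2 had 0.50, 0.50, 0.48, 0.43 and 0.42, and −0.03, 0.38, 0.32, −0.02 and −0.14 without it. With the 12 neutrophil markers r over the 45 libraries was negative for all 10 genes, from −0.76 for MCM3 and MCM7 to −0.11 for CDT1, but within days it was above 0 for ORC1, CDT1, MCM2, MCM6 and MCM10. Without TMM scaling it ran from −0.68 for MCM4 to −0.25 for CDT1, with −0.45 for MCM3 and −0.43 for MCM7. CDC6, MCM4, MCM10 and CDT1 followed 12 markers of mitosis and proliferation with r = 0.91, 0.88, 0.83 and 0.80, and ORC1, MCM2 and MCM6 with r = 0.86, 0.81 and 0.79. Without TMM scaling these were 0.92, 0.83, 0.73 and 0.70, and 0.63, 0.54 and 0.55. For MCM3, MCM5 and MCM7 r with these 12 markers was 0.45, 0.45 and 0.59, and 0.48, 0.43 and 0.51 without TMM scaling.

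The other marker lists give the setting of these changes. Of 12 tested neutrophil markers 7 were lower on day 3 and 11 on day 14 vs. day 0, or 4 and 5 with RNA integrity number as covariate, and their summed level had a median of 4757 FPKM on day 0 and 1596 on day 14. All 9 platelet markers were higher on day 3 and 3 of 9 on day 14. Of 8 NK and cytotoxic cell markers 5 were higher on day 14, of 8 plasma cell markers 4 were higher, of 9 T cell markers 1 was higher, and of 8 B cell markers 1 was lower. Of 11 neutrophil precursor markers 1 was lower on day 14 vs. day 0, and of 6 monocyte markers 2. Without TMM scaling, where 41.8% of tested genes were lower on day 14 vs. day 0, 6 of the 8 B cell, 2 of the 9 T cell, 4 of the 11 neutrophil precursor and 3 of the 6 monocyte markers were lower, no T cell marker was higher, and 2 of the 8 plasma cell markers were. With the RNA integrity number in the fit no T cell, B cell, neutrophil precursor or monocyte marker was called on day 14 vs. day 0, and 1 of 9 platelet and 3 of 8 plasma cell markers were. The part of any of these cell types in the differences of the licensing genes was not tested.

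**Figure D4:**
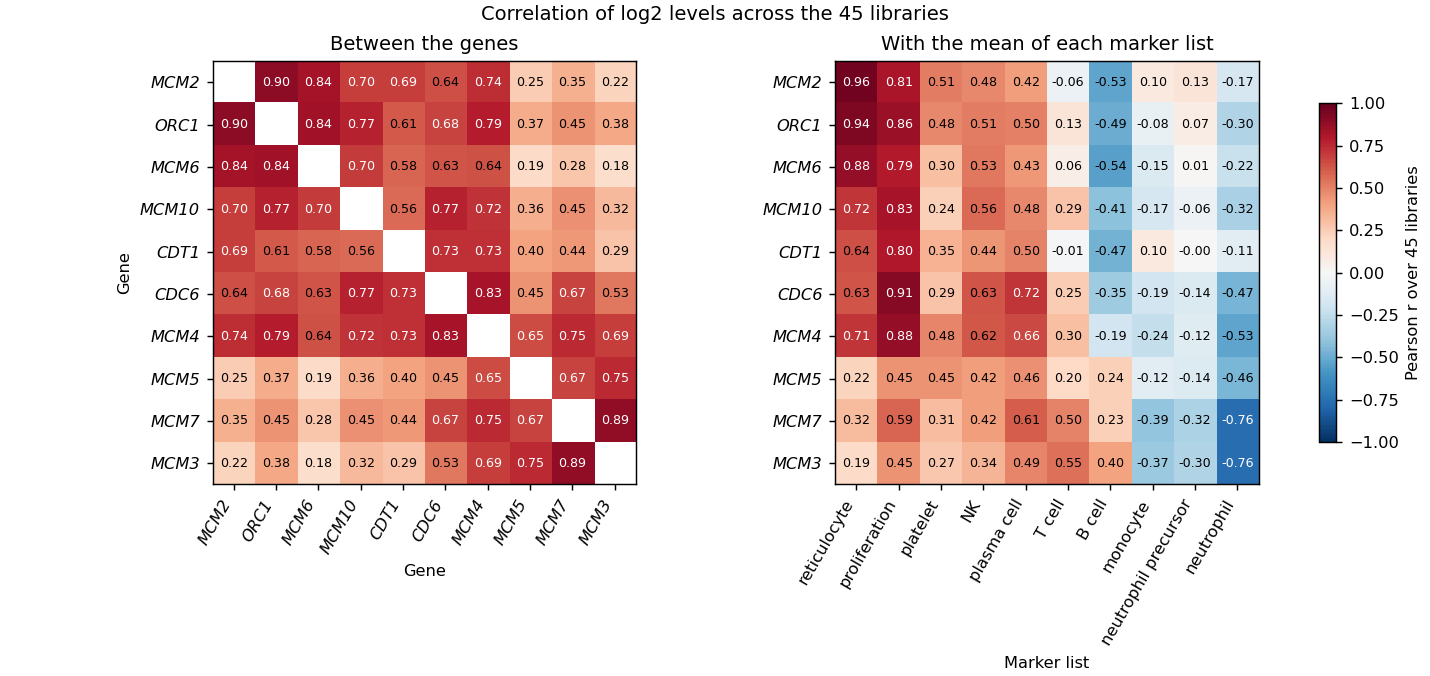
Pearson r of log2 levels (TMM scaled) over the 45 libraries, between the 10 genes (left) and between each gene and the mean of each marker list (right), with red for positive and blue for negative values. MCM2, ORC1 and MCM6 reach 0.96, 0.94 and 0.88 with the reticulocyte list, where MCM3, MCM5 and MCM7 have 0.19, 0.22 and 0.32 and turn negative without TMM scaling.

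Genes outside the group that were most like the mean of its standardized log2 levels over the 45 libraries included BUB1 (r = 0.90), CHAF1A (0.90), UHRF1 (0.90), TK1 (0.90) and EXO1 (0.89). BUB1 is a kinase of the spindle checkpoint, EXO1 is a nuclease of DNA repair, CHAF1A loads histones behind the fork, UHRF1 helps to copy DNA methylation and TK1 supplies thymidine nucleotides. For single members the closest genes, looked up after values were seen, differed by set. MCM2 was closest to GLRX5 (r = 0.98) and HBQ1 (0.97), a gene of iron-sulfur cluster formation and a globin gene. MCM6 was closest to DCAF8 (0.94), CDC6 to RRM2 (0.92), a subunit of ribonucleotide reductase, and MCM3 and MCM7 to each other (0.89).

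The remaining licensing genes did not move as a group. Of 13 tested genes (the other subunits ORC2 to ORC6, the CDT1 inhibitor geminin GMNN, the MCM paralogs and binding factors) none was higher and 1, ORC4, was lower on day 3 vs. day 0 (limma, adjusted p = 0.0254, from 37.0 to 28.0 FPKM, lower in 15 of 15 animals). That call was lost with the RNA integrity number in the fit (adjusted p = 0.0572), and between days 3 and 14 ORC4 rose again by 0.51 (adjusted p = 0.00282, and 0.331 without TMM scaling), 1 of 4 genes higher and 1 lower there. On day 14 vs. day 0, 4 were higher and 2 lower, with a median log2 fold change of 0.15. GMNN rose from 2.14 to 2.91 FPKM (log2 fold change 0.87, SE 0.17, adjusted p = 7.69e-05) and was higher in 14 animals. MCM8, which with MCM9 forms a helicase of DNA repair, rose by 0.37 on the TMM scale, although its FPKM means were 2.36 and 2.26. MCM9 fell from 16.4 to 9.61 FPKM (log2 fold change −0.36, SE 0.07, adjusted p = 1.57e-04) and was lower in 15 of 15 animals. BRPF3, a scaffold of the histone acetylase that assists licensing, fell from 2.53 to 1.47 FPKM (−0.37, adjusted p = 0.00686, and 0.156 with the RNA integrity number in the fit). ORC2 and ORC6 did not pass the test in any of the 3 comparisons, with adjusted p of 0.226 and 0.430 on day 14 vs. day 0. Without TMM scaling 1 of the 13 genes was higher and 6 were lower on day 14 vs. day 0, near the shares over all tested genes in that setting (7.79% and 41.8%).

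Genes that act on the licensed origin, at the fork and in nucleotide supply were counted in the same fit. Together with the remaining licensing genes, on day 14 vs. day 0 a total of 40 of 73 tested genes were higher and 3 lower (18.8% and 17.3% of all tested genes). The day 3 vs. day 0 comparison called 13 higher and 3 lower (6.02% and 6.19%). Without TMM scaling it called 5 higher and 1 lower (710 and 886 of all 18753 tested genes). With the RNA integrity number in the fit it called 7 higher and 1 lower (707 and 729 of 18753). Between days 3 and 14 the count was 22 higher and 1 lower, where 8.38% and 5.01% of all tested genes were. Without TMM scaling the day 14 vs. day 0 count was 16 higher and 16 lower (7.79% and 41.8% of all tested genes). That between days 3 and 14 was then 7 higher and 17 lower, where 606 of all 18753 tested genes were higher and 6600 lower. Of 19 firing genes 11 were higher and 1 lower on day 14, or 5 higher and 4 lower without TMM scaling. With the RNA integrity number in the fit 7 were higher and none lower. WDHD1, which tethers polymerase alpha to the helicase, rose by 1.2 (adjusted p = 6.41e-07), and GINS1 and GINS2, subunits of the active helicase complex, rose by 1.12 and 0.97. CCNE2, a cyclin that drives entry into S phase, rose by 0.90. TOPBP1, a scaffold for helicase activation, went the other way, from 31.0 to 20.2 FPKM (log2 fold change −0.25, adjusted p = 0.0301, and 0.111 with the RNA integrity number in the fit).

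At the fork 19 of 31 tested genes were higher and none lower on day 14 vs. day 0, and 12 did not pass the test. With the RNA integrity number in the fit 12 were higher and none lower, where 11.8% of all tested genes were higher. Without TMM scaling 6 were higher and 4 lower, where 7.79% and 41.8% of all tested genes were. The lowest adjusted p-values were those of CHAF1A (log2 fold change 1.18), ATAD5, which unloads the sliding clamp (1.23), PRIM1, the catalytic primase subunit (1.47), and RPA1, the largest subunit of the single-strand binding protein (0.71). In nucleotide supply 6 of 10 genes were higher and none lower, or 4 higher and 2 lower without TMM scaling. TYMS, thymidylate synthase, rose from 4.21 to 11.3 FPKM (log2 fold change 1.86, SE 0.29, adjusted p = 7.46e-06) and was higher in 15 of 15 animals, followed by DCK (1.41), TK1 (1.34) and RRM2 (1.09), which all make or salvage deoxynucleotides. Of 11 tested genes for ubiquitin ligases and their partners that act on CDT1, CDC6 or ORC1, 8 were higher and none lower, or 5 higher and 3 lower without TMM scaling. RBX1, the ring subunit of cullin ligases, rose by 2.16 and SKP1, an adaptor of the same ligases, by 1.64, both abundant at 640 and 228 FPKM on day 14. DTL, the receptor that targets CDT1 in S phase, rose by 0.94 at a level of 1.42 FPKM, and FZR1, an activator of the anaphase-promoting complex, by 1.18.

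Among 24 genes of the E2F and RB control of S phase entry, 11 were higher and 1 lower on day 14 vs. day 0. Without TMM scaling 7 were higher and 10 lower, where 7.79% and 41.8% of all tested genes were. E2F2, an activator E2F, rose from 4.99 to 21.9 FPKM (log2 fold change 2.51, SE 0.36, adjusted p = 2.14e-06), and TFDP2, a dimerization partner of E2F proteins, from 188 to 685 FPKM (2.61, adjusted p = 8.41e-06), each in 15 of 15 animals. E2F1, an activator known to drive licensing genes, rose by 1.23 and E2F4, mainly a repressor in resting cells, by 1.21. E2F5 fell from 2.38 to 1.08 FPKM (−0.57, adjusted p = 0.0188, and 0.0730 with the RNA integrity number in the fit). Of 12 markers of mitosis and proliferation 11 were higher and none lower (10 and 1 without TMM scaling), with KIF11 and BUB1 (1.5 each) at the lowest adjusted p-values, ahead of CCNB1 (1.28) and TOP2A (1.26). The median log2 fold change over those 12 was 1.17, against 1.02 for the 10 licensing genes, 0.44 at the fork and 0.36 for firing genes. Without TMM scaling these medians were 0.76, 0.63, 0.02 and −0.03, beside −0.36 over all tested genes.

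**Figure D5:**
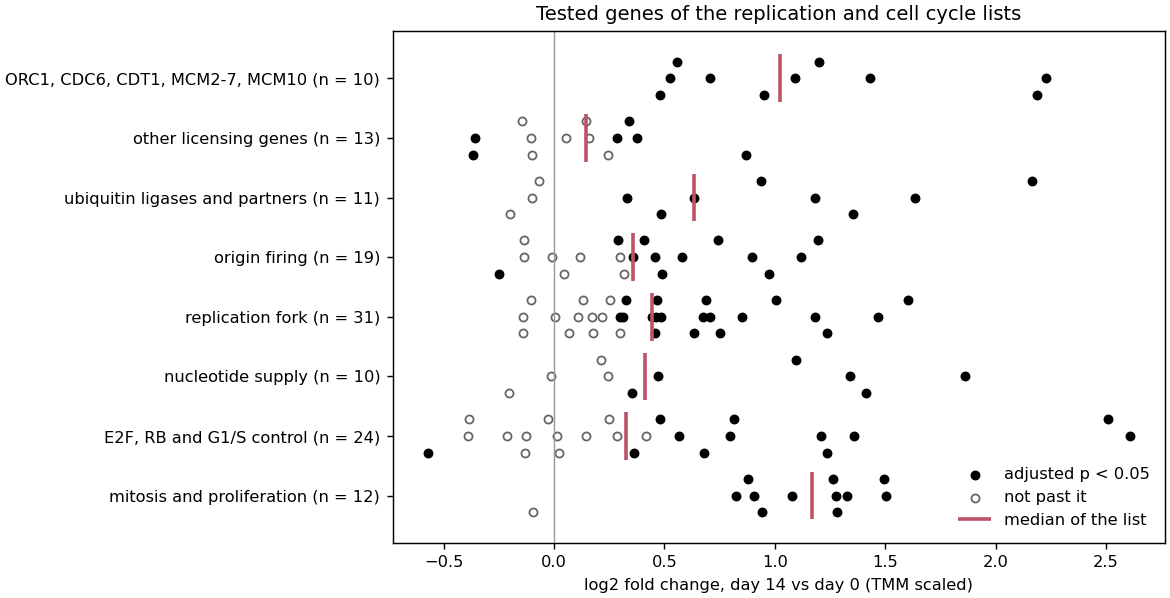
Log2 fold change on day 14 vs. day 0 (horizontal axis, TMM scaled) of every tested gene in 8 lists (vertical axis), with 1 point per gene, filled at an adjusted p under 0.05, and a red bar at the median of each list. The 10 licensing genes are all filled with a median of 1.02, where the other licensing genes have a median of 0.15, and without TMM scaling 6 of the 10 are called and the medians are 0.63 and −0.27.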

How the data were processed

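Total RNA of stabilized whole blood was turned into stranded libraries after removal of ribosomal and globin RNA and sequenced in pairs. Per the labels and the methods, the authors aligned reads with STAR to the Chlorocebus_sabeus 1.1 assembly, counted fragments with HTSeq and deposited the values as FPKM, 1 table per sample. All 1011768 values above 0 came out as whole fragments within 0.02, so fragment totals could be recovered.

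Genes above 0.5 CPM in at least 3 samples were kept, a threshold worth between 6.61 and 15.7 fragments depending on library size. FPKM were divided by TMM factors computed from the recovered fragments, 0.1 was added and log2 values were fitted with limma 3.58.1 (R 4.3.3) with 1 mean per day and no animal term, so a fold change is on the log2(FPKM + 0.1) scale and understates the change of low genes such as MCM10. P-values were adjusted by Benjamini-Hochberg over the 18753 genes. The fit was tested on simulated data with independent libraries and no animal effect. That test does not cover repeated samples of an animal. The 10 members and the other 16 of 17 lists were chosen with earlier results of these data known. The text names all 10 members, up to 4 genes with the lowest adjusted p on day 14 vs. day 0 in each list outside the cell type lists, genes called against their list, and those of the 6 genes most like the members that can be given, since 1 result is not reported here.

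The replicate number is the animal. Deviations from the day means correlated across genes with a mean r of 0.328 between libraries of 1 animal (45 pairs) and −0.0231 between animals. Samples of an animal are repeated draws, and the fit without the block treats them as separate. Alternatives were the block, no TMM, median-of-ratios scaling, other pseudocounts and filters, the RNA integrity number as a covariate, leaving out each animal and, chosen after seeing the data, voom on recovered fragments and leaving out 2 libraries. List genes with no matching symbol, such as GYPB, PF4, JCHAIN and POLD1, were not analysed here, and 3 symbols were matched by RefSeq gene ID.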

Additional observations from a re-analysis of the deposited data

How the results depend on the processing

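Counts of called genes cover the 10 members, the 73 tested replication genes outside them and all tested genes. With the replicate block, 5 members were called between days 3 and 14 in place of 2, and all tested genes came to 3594 on day 3 vs. day 0 (2288 without it) and 4446 between days 3 and 14 (2511 without it). The block lost no call of a member, and gained MCM6 and MCM10 on day 3 and ORC1, CDC6 and MCM4 between days 3 and 14. Voom with the block gave 3517 and 4413 tested genes and 8 and 3 members, and of those gains kept MCM6 on day 3 and MCM4 between days 3 and 14. Without TMM, 6 members were called higher on day 14 and none (0) between days 3 and 14, 6 replication genes on day 3 in place of 16, and 7206 tested genes between days 3 and 14. The RNA integrity number as a covariate left 8 replication genes and 1436 tested genes on day 3, 27 replication genes (43 without it) and 3729 tested genes (6756 without it) on day 14, and 1 member (MCM6) and 1135 tested genes between days 3 and 14. The block and that covariate together gave 24 replication genes and 4072 tested genes on day 14 and 1 member (MCM10) between days 3 and 14. Without a filter 1637 tested genes were called between days 3 and 14. Leaving out day 0 animal 9 and day 14 animal 4 gave 5 members between days 3 and 14, and 5 members and 4446 tested genes with the block. The log2 fold change of MCM7 between days 3 and 14, 0.04, was −0.34 without TMM, where the median over all tested genes was −0.35. It was −0.063 with the covariate and −0.037 with covariate and block, and none of these values was called.

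Leaving out 1 animal at a time kept all 10 members called on day 14 and 7 to 8 on day 3. Between days 3 and 14 it was 0 to 4, with 0 by limma without animal 8, 12 or 14 (4, 5 and 4 at an unadjusted p under 0.05, other tools not run), 1 without animal 3 or 9 and 4 without animal 2. Replication genes came to 9 to 17 on day 3 (9 without animal 2), 40 to 45 on day 14 and 12 to 24 between days 3 and 14 (12 without animal 8). Tested genes came to 1364 to 2360 on day 3 (1364 without animal 2), 5896 to 6897 on day 14 and 794 to 3117 between days 3 and 14. That last count fell below 2511 by more than 1.5 times without animal 2, 3, 8, 9, 12 or 14 (1363, 1330, 794, 1447, 1223 and 1422). The log2 fold change of MCM5 between days 3 and 14 lay between −0.14 and 0.024, above 0 only without animal 2. Median-of-ratios scaling, pseudocounts of 1 and 0.01, a minimum mean of 1 FPKM, a trended robust fit and voom without the block kept each of these counts within 1.5 times the reported one. The cause of the shifts was not tested. The planned edgeR alternatives were not run, and voom on the recovered fragments was used in their place. CDT1 and MCM10 rest on few fragments, 15 and 33 in their lowest libraries.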
